A study of Mus musculus with 37 samples.

Results

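Calorie restriction without a running wheel was compared with free feeding without a wheel in the mammary gland of the mouse. Samples were chosen by their diet label: 9 arrays of calorie-restricted mice (CR) and 10 arrays of mice fed ad libitum (AL), 19 of the 37 arrays in the study. The remaining 18 arrays came from mice that also had a running wheel, 9 calorie-restricted (CR+EX) and 9 fed ad libitum (AL+EX), and they entered the estimate of the spread and a comparison of their own. All animals were female C57BL/6 mice, 9 weeks old when they were randomized, and were followed for 6 weeks. CR mice were restricted by 30%: they got 70% of the calories that AL mice ate, with the other nutrients kept at 100%. The labels name no transgene, mutation or drug. Each RNA sample was whole tissue from the left and right thoracic glands of an animal, pooled, and was hybridised to 1 Affymetrix array. The labels give no hour of feeding and no hour of tissue collection.

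The mammary gland of an adult female mouse is a tree of epithelial ducts in a pad of white fat, with vessels, nerve and immune cells, and the thoracic glands lie against muscle and near lymph nodes. White fat takes up glucose and fatty acids after a meal, makes new fatty acids through acetyl-CoA and malonyl-CoA, and releases fatty acids in fasting. It also secretes leptin, whose level follows fat mass. Most cells run a molecular clock: CLOCK and BMAL1 (Arntl) bind E-boxes and drive the Per, Cry and Nr1d genes, PER and CRY proteins switch CLOCK and BMAL1 off, and NR1D1 represses Arntl and Nfil3 through ROR elements. The output factors DBP, TEF and HLF activate genes at D-boxes, and NFIL3 represses at those same sites.

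The values are Affymetrix signal intensities that the authors had already scaled. The mean after trimming 2% of probe sets at each end lay between 500.16 and 500.23 on the 19 arrays. Differences are given on the log2(signal + 16) scale as CR minus AL with the standard error of the limma fit (n = 9 and 10), so a positive value means higher in CR. Correlations between arrays ran from 0.841 to 0.978 across genes, with a median of 0.943 among CR arrays and 0.925 among AL arrays. A gene was called when its adjusted p was under 0.05 (limma, Benjamini-Hochberg over 9294 genes). The animal numbers in the titles form 4 runs, and each run holds both groups, with 2, 2, 3 and 2 CR arrays and 2, 3, 3 and 2 AL arrays in runs 1 to 4. Nothing in the labels tells if the runs were batches. AL animals precede CR animals in the numbering of every run, so place in the run and diet cannot be told apart.

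The arrays stood apart in ways that the diet labels do not name. The B lymphocyte genes had a mean level above 7.5 (log2) on 4 of 9 CR arrays and 4 of 10 AL arrays, where it lay between 7.95 and 9.47 in CR and between 8.57 and 10.17 in AL, against 6.46 to 6.75 on the other CR arrays and 6.52 to 6.81 on the other AL arrays. The arrays above 7.5 are called B-lymphocyte-high. In whole tissue, more cells of a type and more RNA per cell cannot be told apart. The first principal component of the 19 arrays held 25.7% of the variance, and diet accounted for a share of 0.00116 of it, the runs for a share of 0.69. It correlated with the B lymphocyte level (r = 0.914 across the 19 arrays, as a description). The third component, with 10.5% of the variance, held a run share of 0.818. The ratio of the Gapdh 3' to 5' control signals, a sign of RNA wholeness, lay between 0.75 and 1.32 in CR and exceeded 2 on 3 AL arrays, at 2.37, 2.74 and 7.03. Both AL arrays of run 1 are among these 3, so every difference within run 1 sets CR against AL arrays with a high ratio. The second component, with 14.4% of the variance, held a diet share of 0.407 and correlated with the log2 Gapdh ratio (r = 0.68 across the 19 arrays, as a description). The effect of leaving out either set of arrays is given for all 41 called genes together and for some genes singly.

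**Figure D1:**
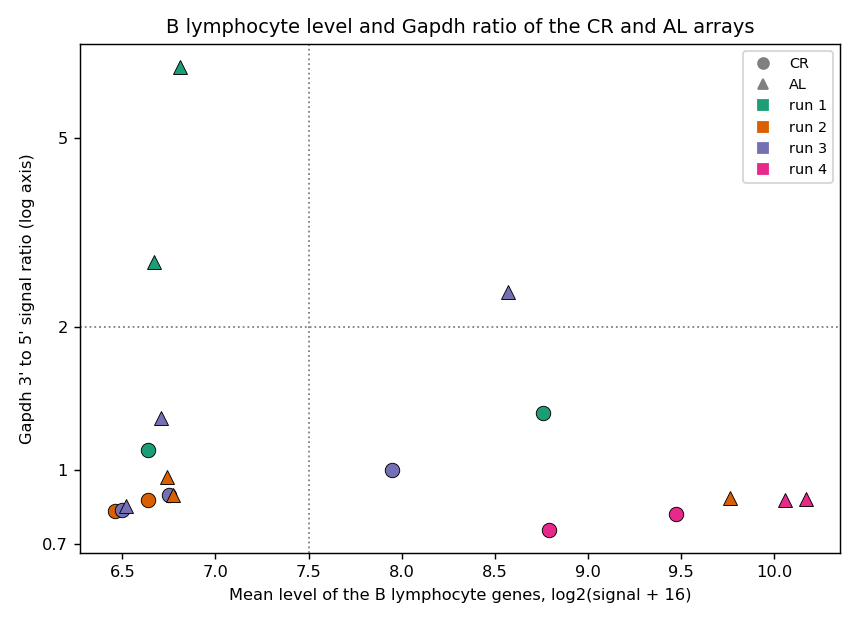
Each point is 1 array: the x axis is the mean log2(signal + 16) of the B lymphocyte genes, the y axis the Gapdh 3' to 5' signal ratio on a log axis. Circles are CR, triangles AL, and colours mark the 4 runs of animal numbers. The dotted lines stand at 7.5 and 2, and all 3 arrays above the upper line are AL arrays.

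Few genes differed between CR and AL at this threshold when the runs were left out of the fit. Of 9294 genes, 41 were called (0.441%), with 19 higher in CR (0.204%) and 22 lower (0.237%). The split of 19 higher and 22 lower came to 14 and 10 after quantile normalization and to 10 and 4 after centring each array on its median. The called differences were modest, with a median size of 0.70 on the log2 scale, and 31 of the 41 exceeded 1.5-fold. In 3 of the 41 no CR array overlapped any AL array, against 6 of all 9294 genes (0.0646%). The direction was the same in all 4 runs for 39 of the 41, against 22.2% of all genes, a share that the calls themselves raise. With the runs as a block in the fit, 573 genes were called (6.17%), 242 higher (2.60%) and 331 lower (3.56%), and the 41 were among them. Most of the 41 calls were lost when arrays that stood apart were left out. Leaving out 1 other array could do the same: 9 of the 41 stayed called without CR array 5, which is in neither set. Dbp, Nfil3 and Rest were the 3 of the 41 that stayed called both without the B-lymphocyte-high arrays and without those with a high Gapdh ratio. Without the first set Fkbp4 and Parp9 also stayed called, and without the second Acad11, Cxxc5, Gpx8 and Nr1d1, so each other call named here was lost in both fits. Members of the pathway lists that passed only with the runs as a block are named as such, and were chosen after their values were seen. Of the 43 such members, cell type markers included, 20 stayed called in the block fit without the arrays with a high Gapdh ratio, 6 without those high in B lymphocyte genes, and 3 in both (Abhd5, Nrg4 and Usp18).

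Clock genes were among the genes with the largest called differences. Nr1d1, which encodes the heme-binding repressor REV-ERB alpha, fell, as did Dbp, the D-box activator. Nfil3, the D-box repressor that NR1D1 holds down, rose. The signal of Nr1d1 was 50, 260 and 489 in CR glands (lowest, median and highest array), against 620, 842 and 1230 in AL glands. Every CR array was below every AL array, and the difference was -1.81 ± 0.32 (3.51-fold lower, adjusted p = 0.0027 by limma). For Dbp the signals were 250, 661 and 830 in CR, against 651, 1760 and 2570 in AL. Only the lowest AL array, in run 4, lay under the highest CR array. The Dbp difference was -1.40 ± 0.25 (2.64-fold lower, adjusted p = 0.0027 by limma), and its other probe set moved the same way. Nfil3 had signals of 246, 369 and 434 in CR, against 85 and 253 as the lowest and highest in AL, with 140 and 148 in the middle. Here too only 1 AL array, the highest, in run 4, reached above the lowest CR array, in run 1. The Nfil3 difference was 1.24 ± 0.19 (2.35-fold higher, adjusted p = 6e-04 by limma).

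Within the runs of animal numbers, Nr1d1 differed by -1.05, -1.50, -1.54 and -3.31 in runs 1 to 4, Dbp by -0.98, -1.09, -2.05 and -1.07, and Nfil3 by 1.10, 1.19, 1.57 and 0.83. Each of these differences had the direction of the whole comparison. Without the arrays with a high Gapdh ratio, Nr1d1 differed by -1.96, Dbp by -1.32 and Nfil3 by 1.24 (adjusted p = 0.012, 0.041 and 0.0074 by limma). With those high in B lymphocyte genes left out, Dbp (-1.43) and Nfil3 (1.47) still passed, both at an adjusted p of 0.034 (limma), and Nr1d1 did not (-1.37, adjusted p = 0.095).

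**Figure D2:**
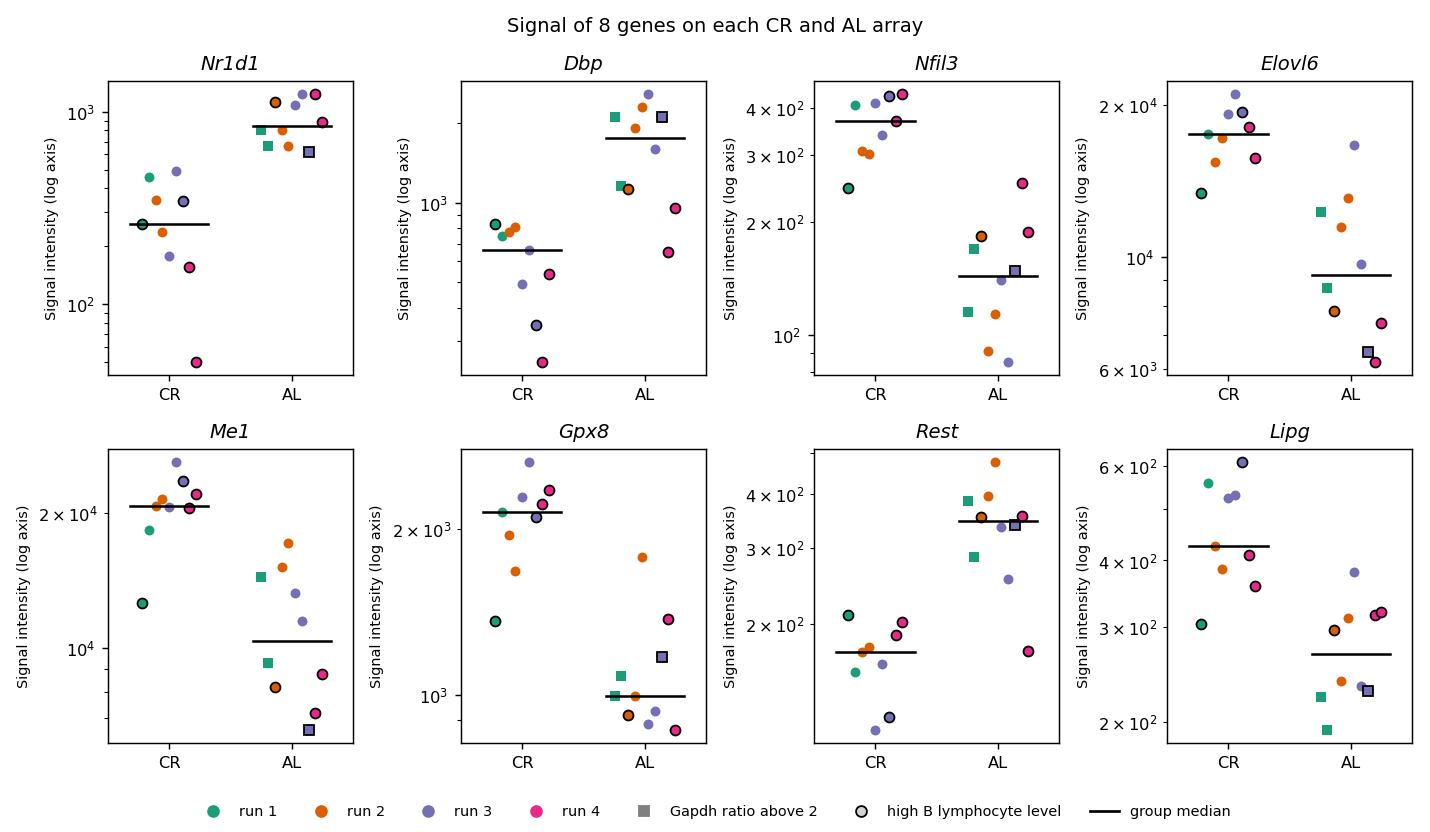
Signal intensity (log axis) of 8 called genes on each CR array (left in each panel) and each AL array (right). Colours mark the runs, squares the arrays with a Gapdh ratio above 2, black outlines the arrays high in B lymphocyte genes, and bars the group medians. Nr1d1, Dbp and Rest lie lower in CR, and Nfil3, Elovl6, Me1, Gpx8 and Lipg higher.

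The other clock genes moved less. Of the 14 core clock genes tested, 1 was called, Nr1d1, against 0.237% of all genes called lower. The list median was -0.23 with 11 of the 14 below 0, against a median of -0.04 over all genes. With the runs as a block 5 were called, all lower in CR, against 3.56% of all genes: Nr1d1, Per3 (-0.54 ± 0.13), Bhlhe40 (-0.56 ± 0.13), Nr1d2 (-0.36 ± 0.11) and Csnk1d (-0.36 ± 0.11), with adjusted p of 0.014, 0.0091, 0.041 and 0.035 (limma) for the last 4. Bhlhe40 encodes a repressor that competes at E-boxes, Nr1d2 the close relative of NR1D1, and Csnk1d a kinase that marks PER proteins. Nr1d2 was -0.22 in the block fit without the B-lymphocyte-high arrays (adjusted p = 0.31 by limma). That fit called 1 core clock gene lower, and the block fit without the arrays with a high Gapdh ratio called 2. The other probe set of Nr1d2 pointed the opposite way, and only 1 of the 4 others of Csnk1d and 1 of the 2 others of Per3 pointed the same way. The positive limb did not pass: Arntl had 149, 203 and 296 in CR, against 105, 140 and 220 in AL (0.46 ± 0.18, adjusted p = 0.22 by limma). Cry1, which encodes a repressor of CLOCK and BMAL1, had 94.7, 115 and 230 in CR, against 37.1, 76.2 and 115 in AL (0.70 ± 0.23, adjusted p = 0.13 by limma). Clock itself differed by -0.32 ± 0.17, and the further repressors Per1 and Per2 by -0.35 ± 0.20 and 0.23 ± 0.25. Among the output genes, Tef had 2410, 3350 and 3770 in CR, against 3500, 4100 and 4880 in AL. It was called only with the runs as a block (-0.34 ± 0.09, adjusted p = 0.017 by limma), and Hlf differed by -0.01 ± 0.11.

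**Figure D3:**
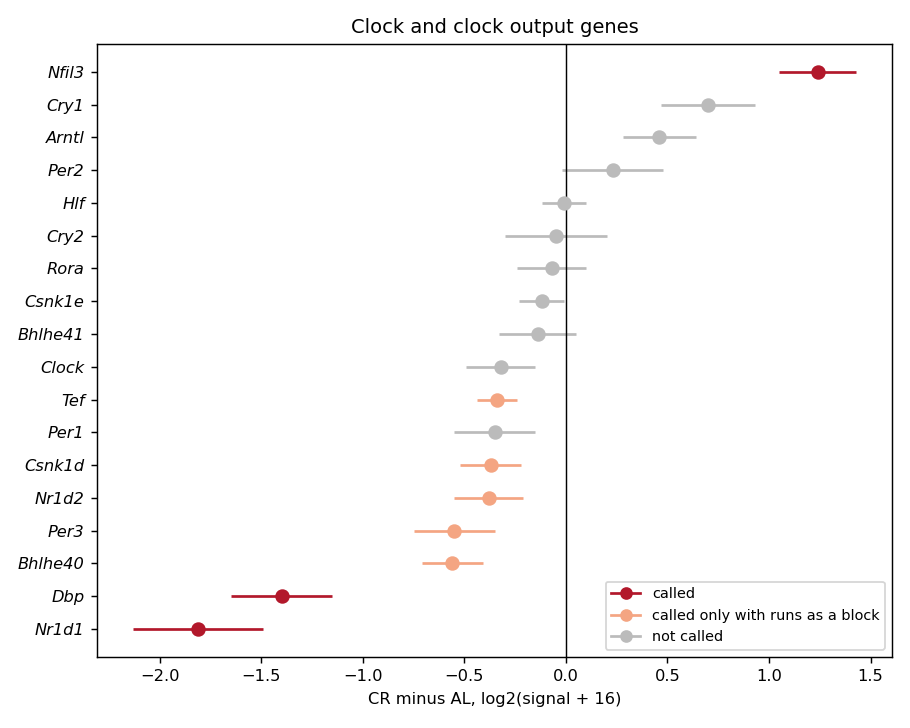
CR minus AL difference on the log2(signal + 16) scale with its standard error for the 18 clock and clock output genes, in order of size. Dark red marks the called genes Nfil3, Dbp and Nr1d1, orange those called only with the runs as a block, and grey the rest.

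The promoters of 3 of these genes are shown because they hold motifs of the kinds that NR1D1, the D-box factors, and CLOCK with BMAL1 are known to bind. The letters are RefSeq's for GRCm38.p6, from 250 bases before to 50 bases after the annotated start, read along the gene's own strand, with motif matches in capitals. Nfil3 (chr13:52980990-52981289, minus strand) holds the ROR element core TAGGTCA, read here on the opposite strand, beginning 12 bases before its start. Per3 (chr4:151044616-151044915, minus strand) holds 2 D-boxes of the form TTATGTAA, beginning 205 and 158 bases before its start. The first listed start of Tef (chr15:81802423-81802722, plus strand) holds the E-box CACGTG, beginning 127 bases before it.
Nfil3: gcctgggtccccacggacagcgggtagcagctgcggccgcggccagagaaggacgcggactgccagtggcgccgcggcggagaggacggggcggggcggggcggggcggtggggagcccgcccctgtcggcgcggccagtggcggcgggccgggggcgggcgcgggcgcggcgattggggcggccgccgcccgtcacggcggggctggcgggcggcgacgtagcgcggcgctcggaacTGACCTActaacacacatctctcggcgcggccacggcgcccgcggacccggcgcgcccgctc
Per3: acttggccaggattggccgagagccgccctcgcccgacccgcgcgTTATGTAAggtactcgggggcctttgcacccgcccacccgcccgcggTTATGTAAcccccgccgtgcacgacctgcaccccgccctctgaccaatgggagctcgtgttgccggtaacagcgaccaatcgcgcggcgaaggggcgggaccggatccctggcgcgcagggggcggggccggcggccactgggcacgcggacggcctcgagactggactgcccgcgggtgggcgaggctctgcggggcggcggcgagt
Tef: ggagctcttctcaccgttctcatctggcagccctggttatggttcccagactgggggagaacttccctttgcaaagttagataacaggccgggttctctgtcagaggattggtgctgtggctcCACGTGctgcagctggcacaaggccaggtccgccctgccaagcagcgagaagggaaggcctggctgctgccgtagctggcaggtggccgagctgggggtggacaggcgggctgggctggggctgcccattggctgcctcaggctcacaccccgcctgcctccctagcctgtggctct
Both strands were searched for the 3 motifs, none of which overlapped another in these windows. The ROR element core lies in 2.61% of all 32851 promoters, the D-box in 0.938% and the E-box in 7.15%. Among the 9692 promoters of tested genes these shares are 2.05%, 0.526% and 9.75%. Of the 41 called genes 30 had a promoter in the table, with 35 starts: 4 starts held an E-box (Abca8a, Fbln1 and Pepd), 1 the ROR element core (Nfil3) and none this form of the D-box. Of the 18 clock and output genes 15 had one, with 23 starts: 5 held an E-box (Bhlhe41, Cry1, Per1 and Tef), 2 the ROR element core (Arntl and Nfil3) and 1 the D-box (Per3). A match describes letters and not a bound site.

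In fatty acid synthesis Elovl6 and Me1 rose in CR glands. They were the 2 called of 19 tested, against 0.204% of all genes called higher. Of the 19, 17 lay above 0 with a median of 0.26, against 43.1% of all genes above 0. Elovl6, the elongase that lengthens palmitate to stearate, had 13400, 17500 and 21000 in CR, against 6200, 9200 and 16700 in AL. Me1, the cytosolic malic enzyme that supplies NADPH for fatty acid synthesis, had 12600, 20800 and 26000 in CR, against 6580, 10400 and 17200 in AL. In both genes all 9 CR arrays were above the AL median, and the groups overlapped through the lowest CR and the brightest AL arrays. Elovl6 rose by 0.86 ± 0.17 (1.82-fold, adjusted p = 0.015) and Me1 by 0.94 ± 0.19 (1.92-fold, adjusted p = 0.017, both limma). Within runs the rise of Elovl6 was 0.57, 0.62, 0.96 and 1.31, and that of Me1 was 0.40, 0.72, 1.22 and 1.42. Neither passed with the arrays high in B lymphocyte genes left out (0.61 and 0.69, adjusted p = 0.16 and 0.13) or without the arrays with a high Gapdh ratio (0.82 and 0.88, adjusted p = 0.069 for both, all limma). With the runs as a block 6 of the 19 were called, all higher, against 2.60% of all genes. The additional 4 were Acly, which makes cytosolic acetyl-CoA from citrate (0.70 ± 0.19), Acss2, which makes it from acetate (0.94 ± 0.25), Aacs, which activates acetoacetate for lipid synthesis (0.94 ± 0.21), and Fads2, a desaturase of polyunsaturated fatty acids (0.85 ± 0.23), with adjusted p of 0.027, 0.022, 0.0094 and 0.024 (limma). In the block fit without the B-lymphocyte-high arrays 0 of the 19 were called, and without those with a high Gapdh ratio 3 were.

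Fasn and Scd1, well known enzymes of the pathway, did not pass. Fasn, the fatty acid synthase, had 18700, 28800 and 33800 in CR, against 16400, 23000 and 41900 in AL (0.13 ± 0.18, adjusted p = 0.80 by limma). Scd1, the stearoyl-CoA desaturase, had 19700, 28000 and 42200 in CR, against 19500, 31700 and 54900 in AL (-0.18 ± 0.24, adjusted p = 0.79 by limma). For both genes the CR range lay within the AL range. The other, dimmer probe set of Scd1 pointed the opposite way, with a mean of 13.61 in CR and 13.03 in AL (log2, a difference of 0.58). The list of pentose phosphate pathway and NADPH supply also holds Me1, its 1 called gene of 8, against 0.204% of all genes called higher. Of the 8, 7 lay above 0 (median 0.27). Rpe, an epimerase of that pathway, joined only with the runs as a block (0.55 ± 0.13, adjusted p = 0.014 by limma).

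Cholesterol synthesis held 2 called genes among 18, both higher in CR, against 0.204% of all genes. Fdps, the synthase that makes farnesyl diphosphate, had 630, 1140 and 1960 in CR, against 303, 568 and 891 in AL. Pmvk, the phosphomevalonate kinase of the mevalonate pathway, had 455, 775 and 982 in CR, against 258, 442 and 585 in AL. All 9 CR arrays were above the AL median for each gene, and a few arrays of the groups overlapped. Fdps rose 2.09-fold (1.07 ± 0.25) and Pmvk 1.71-fold (0.77 ± 0.18), both at an adjusted p of 0.046 (limma). Fdps rose by 0.79, 1.30, 1.34 and 0.90 within the runs and Pmvk by 0.39, 1.20, 0.80 and 0.58. Neither passed without the arrays with a high Gapdh ratio (0.87 and 0.83, adjusted p = 0.19 and 0.11) or with those high in B lymphocyte genes left out (1.15 and 0.88, adjusted p = 0.11 and 0.076, all limma). Over the list 13 of 18 lay above 0, with a median of 0.18. The block fit called 4, against 2.60% of all genes called higher by it, adding Cyp51, the lanosterol demethylase (0.65 ± 0.19), and Nsdhl, a later sterol dehydrogenase (0.47 ± 0.11), with adjusted p of 0.033 and 0.012 (limma). For Cyp51, 1 of 2 other probe sets pointed the opposite way.

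Other called lipid genes lie outside these lists. Lipg, the endothelial lipase that cleaves lipoprotein phospholipids, had 304, 426 and 610 in CR, against 193, 267 and 380 in AL, and rose by 0.70 ± 0.14 (adjusted p = 0.015 by limma). Without the arrays with a high Gapdh ratio it was 0.57 and without those high in B lymphocyte genes 0.86 (adjusted p = 0.12 and 0.076 by limma). Acad11, an acyl-CoA dehydrogenase, had 3780, 4100 and 5010 in CR, against 2110, 2680 and 4660 in AL, and rose by 0.54 ± 0.12. Hacl1, a peroxisomal lyase of fatty acid alpha-oxidation, had 781, 937 and 1080 in CR, against 339, 584 and 910 in AL, and rose by 0.58 ± 0.14. The ABC transporter gene Abca8a rose by 0.68 ± 0.15 and the sialyltransferase gene St3gal6 by 0.65 ± 0.15. The adjusted p of these last 4 were 0.039, 0.048, 0.039 and 0.046 (limma). Their groups overlapped in each case, with all 9 CR arrays above the AL median for Lipg, Acad11, Hacl1, Abca8a and St3gal6.

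Uptake, storage and release of fatty acids held no called gene. Among 9 uptake genes the block fit called 2, both higher in CR, against 2.60% of all genes. Fabp5, a fatty acid binding protein, had 6290, 7850 and 10800 in CR, against 1710, 5290 and 9600 in AL (0.95 ± 0.21 with the block), and Slc27a1, a fatty acid transport protein, had 3540, 5660 and 8120 in CR, against 2440, 3180 and 4760 in AL (0.84 ± 0.18). Both had an adjusted p of 0.0079 with the block (limma), against 0.071 and 0.054 without it. In the block fit Fabp5 was 0.55 without the B-lymphocyte-high arrays (adjusted p = 0.17), and Slc27a1 was 0.71 without those with a high Gapdh ratio (adjusted p = 0.069, both limma). Their list median of 0.04 turned to -0.04 after quantile normalization, -0.08 without the arrays with a high Gapdh ratio and -0.11 without those high in B lymphocyte genes. Among 12 esterification genes the block fit called Agpat3, an acyltransferase (0.36 ± 0.10), and Gpd1, which makes glycerol phosphate (0.47 ± 0.15), as higher, and Lpin2, a phosphatidate phosphatase, as lower (-0.85 ± 0.19). Only 1 of the 3 other probe sets of Gpd1 pointed the same way. Abhd5, the coactivator of the triglyceride lipase ATGL, was the block fit's only call among 9 genes of lipolysis and lipid droplets (0.45 ± 0.11).

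Mitochondrial lists lay above 0 by small amounts. In the respiratory chain and ATP synthase list 35 of 37 genes were above 0, and in the pyruvate and TCA cycle list 21 of 22, with medians of 0.12 and 0.14. No member of either passed, against 0.204% of all genes called higher. The block fit, which called 2.60% of all genes higher, called Ndufs7, of complex I (0.35 ± 0.09), Cycs, cytochrome c (0.32 ± 0.09), Atp5o, of ATP synthase (0.32 ± 0.09), and Dlat, of pyruvate dehydrogenase (0.52 ± 0.14), all higher. Of 18 fatty acid oxidation genes it called Ehhadh, the bifunctional enzyme of peroxisomes (0.84 ± 0.19), Echs1, the mitochondrial hydratase (0.60 ± 0.15), and Ucp3, a mitochondrial carrier (0.46 ± 0.12), while the list median was 0.04. In the block fit without the B-lymphocyte-high arrays no member of the respiratory, pyruvate or oxidation list was called. Without those with a high Gapdh ratio it called 1, 2 and 2 members, in that order. Among 16 genes of glucose uptake and glycolysis the block fit called only Hk1, a hexokinase, lower in CR (-0.42 ± 0.09), where 3.56% of all genes were called lower, and its other probe set pointed the opposite way. Muscle genes were bright on every array and differed little: Ckm, the muscle creatine kinase, had 22200, 24900 and 33400 in CR, against 10400, 23100 and 40000 in AL.

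**Figure D4:**
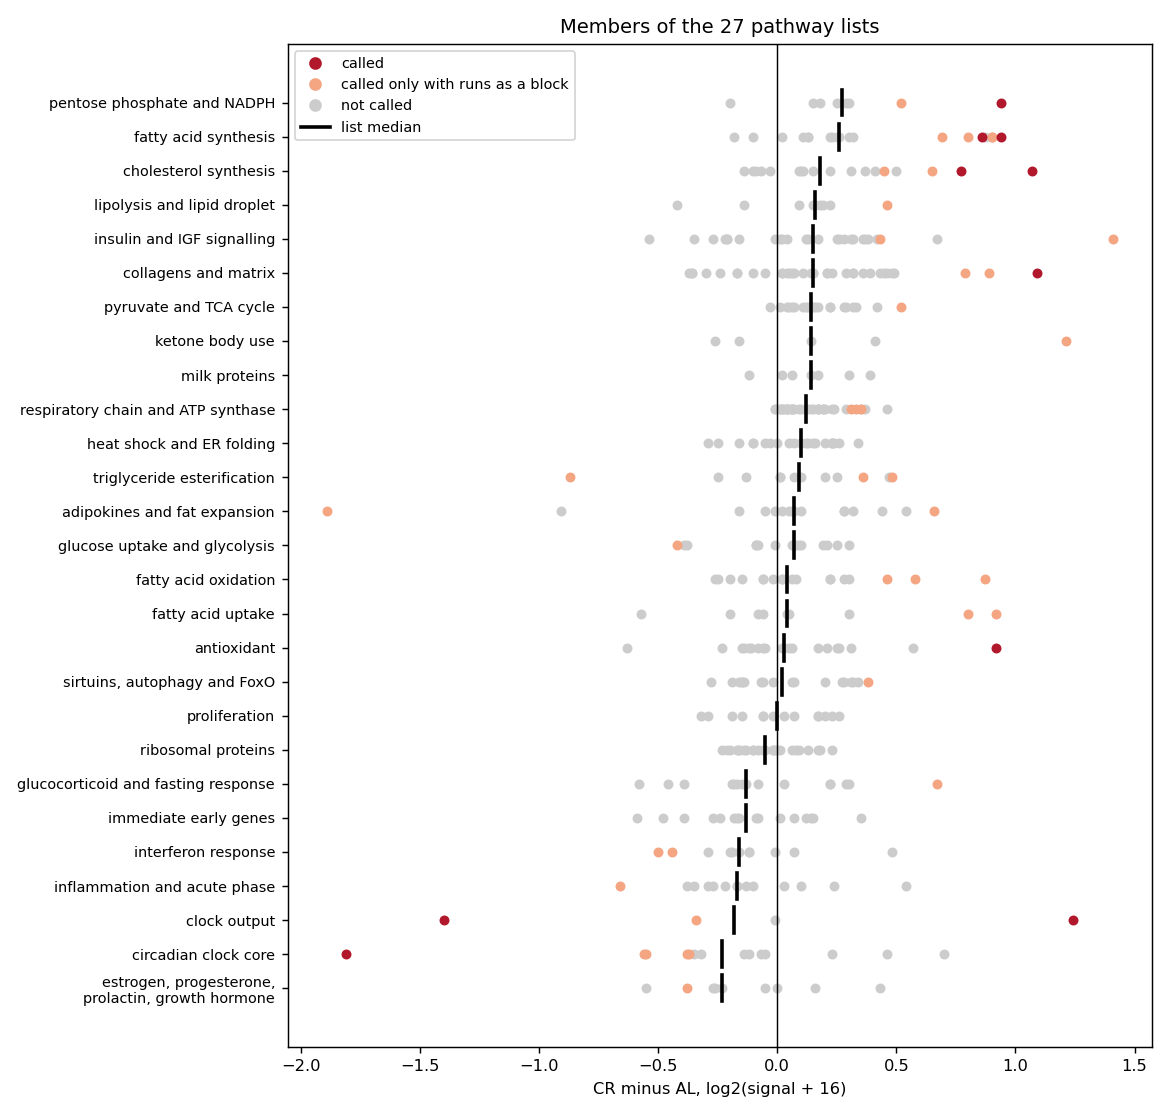
CR minus AL difference on the log2(signal + 16) scale of every tested member of the 27 pathway lists, 1 line per list, ordered by the list median (black bar). Dark red marks called genes, orange those called only with the runs as a block, and grey the rest. Fatty acid and cholesterol synthesis hold called genes on the right, the clock lists on both sides.

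Leptin varied widely between animals. Lep had 15.3, 195 and 423 in CR, against 203, 979 and 1610 in AL. The AL arrays were split: 6 of 10 were at or above 794, over every CR array, and 4 lay within the CR range. The difference was -1.89 ± 0.54 (3.72-fold) and did not pass (adjusted p = 0.074 by limma). With the runs as a block it was called (-1.83 ± 0.48, adjusted p = 0.019 by limma), but not in that fit without the arrays with a high Gapdh ratio (-1.13, adjusted p = 0.20 by limma). Within the runs it was -4.63, -1.14, -1.69 and -0.42, and both AL arrays of run 1 have a high Gapdh ratio. Adipoq, the adiponectin gene, had 12900, 19000 and 25100 in CR, against 14000, 17800 and 31000 in AL (-0.01 ± 0.15), and Retn, which encodes resistin, differed by 0.44 ± 0.27. Mest (-0.05 ± 0.17) and Sfrp5 (0.54 ± 0.29), genes that follow fat expansion in mice, did not pass. Nrg4, a secreted factor of fat, was called only with the block (0.69 ± 0.14, adjusted p = 0.005 by limma).

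Insulin and growth factor signalling held no called gene among 26. The block fit called 2 of them, Igfals and Irs1, both higher in CR, where it called 2.60% of all genes higher. Igfals, the acid-labile subunit that holds IGFs in circulation, had 221, 528 and 699 in CR, against 20, 168 and 492 in AL (1.48 ± 0.29 with the block, adjusted p = 0.005 by limma). Irs1, the insulin receptor substrate, differed by 0.45 ± 0.12 (adjusted p = 0.025 by limma). Igf1 itself had 663, 1020 and 1460 in CR, against 468, 812 and 1590 in AL (0.28 ± 0.20). Hcar2, the receptor for hydroxybutyrate and nicotinic acid that restrains lipolysis, had 209, 456 and 826 in CR, against 33.7, 239 and 488 in AL. It passed only with the block (1.26 ± 0.28, adjusted p = 0.0079 by limma), and was 0.74 there without the B-lymphocyte-high arrays (adjusted p = 0.16 by limma). Of 15 glucocorticoid and fasting genes, the block fit called Tsc22d3, which encodes GILZ, a target of the glucocorticoid receptor (0.68 ± 0.17, and 0.44 with an adjusted p of 0.054 by limma without the arrays with a high Gapdh ratio). Stat5b, a transducer of prolactin and growth hormone signals, was called lower with the block (-0.39 ± 0.09).

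The other higher calls came from varied functions. Gpx8, a peroxidase of the endoplasmic reticulum, had 1360, 2150 and 2640 in CR, against 864, 995 and 1780 in AL. It rose by 0.92 ± 0.14, with the lowest unadjusted p of all genes (adjusted p = 6e-04 by limma). Gpx8 was the 1 called gene among 20 of the antioxidant list, against 0.204% of all genes called higher. With the arrays high in B lymphocyte genes left out it was 0.96 (adjusted p = 0.062 by limma). Mgp, the matrix Gla protein that blocks calcification, had 692, 1010 and 2040 in CR, against 218, 477 and 924 in AL, and rose by 1.09 ± 0.24 (adjusted p = 0.039 by limma). It was the only called gene among 35 of collagens and matrix, against 0.204% of all genes called higher. The median of that list, 0.15, turned to -0.13 with the arrays high in B lymphocyte genes left out. Mgp itself was 0.68 without them (adjusted p = 0.31 by limma). Fbln1, the matrix protein fibulin, rose by 0.78 ± 0.19 and Pepd, the dipeptidase that releases proline in collagen turnover, by 0.67 ± 0.13. Mybph, a myosin-binding protein of skeletal muscle, had 842, 1490 and 2330 in CR, against 142, 579 and 1190 in AL, and rose by 1.39 ± 0.32. It was 1.09 without the arrays with a high Gapdh ratio and 1.70 without those high in B lymphocyte genes (adjusted p = 0.16 and 0.11 by limma). The muscle marker list had a median of 0.06, with a mean level of 14.02 to 14.61 in CR and 13.24 to 14.78 in AL (log2), and none of its 7 genes passed. Its part in the Mybph result was not tested. Fkbp4, a co-chaperone of steroid receptors, rose by 0.60 ± 0.14, but its other probe set pointed the opposite way. Tmem33, a membrane protein of the endoplasmic reticulum, had 570, 660 and 973 in CR, against 123, 432 and 532 in AL, with no overlap, and rose by 0.84 ± 0.21 (adjusted p = 0.048 by limma). Its other probe sets rose less, by 0.33, 0.24 and 0.24. The remaining higher calls were Zfyve21 (0.48 ± 0.11) and 2010003K11Rik (0.72 ± 0.17).

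Defb1, Pkp3 and Sprr1a, known from epithelial surfaces, were among the falls. Defb1, an antimicrobial beta-defensin, had 57.9, 143.5 and 687 in CR, against 110, 644 and 1650 in AL. All CR arrays but 1 lay at or under 199, and all AL arrays but 1 at or above 297. Defb1 fell by 1.90 ± 0.45 (3.74-fold lower, adjusted p = 0.046 by limma), and its other probe set moved the same way. It was -1.91 without the arrays with a high Gapdh ratio and -2.22 without those high in B lymphocyte genes (adjusted p = 0.12 and 0.076 by limma). Within the runs it differed by -1.15, -1.90, -3.61 and -0.11. Pkp3, a plakophilin of desmosomes, fell by 0.56 ± 0.13, and Sprr1a, a protein of the cornified envelope, had 150, 188 and 290 in CR, against 269, 315 and 1400 in AL and fell by 0.87 ± 0.20 (adjusted p = 0.046 by limma for both). All 8 luminal epithelium markers lay below 0, with a median of -0.46, and none passed by either fit. Krt8, a keratin of luminal cells, had 596, 1900 and 3680 in CR, against 951, 3770 and 6800 in AL (-0.78 ± 0.33, adjusted p = 0.25 by limma). The mean level of that list ran from 8.05 to 10.53 in CR and from 8.08 to 10.91 in AL, and none of its markers was at 0. Within runs 1 to 4 the luminal median was -0.31, -0.49, -0.9 and 0.17. Of the 5 basal epithelium markers tested 4 lay above 0, with a median of 0.32, and none passed by either fit. The 3 skin markers tested had a median of -0.12. The part of the epithelial share in these falls was not tested. Further genes lower in CR only with the block were Ctse, an endosomal protease (-1.30 ± 0.31), Ly6d, an epithelial and lymphoid surface protein (-1.25 ± 0.29), and Spdef, a transcription factor of secretory epithelium (-0.95 ± 0.24). The other probe set of Ctse pointed the opposite way, with a mean of 7.84 in CR and 7.26 in AL (log2). Spdef was -1.04 in the block fit without the B-lymphocyte-high arrays (adjusted p = 0.085 by limma).

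The remaining falls came from varied functions. Rest, a repressor of neuronal genes, had 113, 172 and 209 in CR, against 173, 346 and 475 in AL. All AL arrays but 1 lay above all CR arrays, and Rest fell by 0.93 ± 0.16 (1.90-fold lower, adjusted p = 0.0027 by limma). Of its 2 other probe sets 1 pointed the opposite way. Kdm5b, a histone demethylase, fell by 0.61 ± 0.15, and Cxxc5, which binds unmethylated CpG, by 0.54 ± 0.13. Pabpn1, the nuclear poly(A) binding protein, fell by 0.82 ± 0.18, Tnrc6a, a partner of Argonaute in microRNA silencing, by 0.61 ± 0.14, and Cnot6, a deadenylase, by 0.48 ± 0.12. For Pabpn1 1 of 3 other probe sets and for Tnrc6a 1 of 7 pointed the opposite way. Those of Pabpn1 differed by -0.12, 0.05 and -0.14, and the others of Cnot6 by -0.01, -0.13 and -0.19. Rad50, of DNA break repair, and Usp7, the deubiquitinase that acts on MDM2, each fell by 0.41. Vps37a, a subunit of the ESCRT machinery, had 418, 502 and 568 in CR, against 623, 696 and 910 in AL, with no overlap, and fell by 0.49 ± 0.11 (adjusted p = 0.039 by limma). Pmepa1, a membrane protein that dampens TGF-beta signalling, had 609, 771 and 1110 in CR, against 1060, 1290 and 1610 in AL, and fell by 0.71 ± 0.15 (adjusted p = 0.030 by limma). Rasd2, a small GTPase, fell by 1.01 ± 0.23, but within run 2 it differed by 0.12 and with the arrays high in B lymphocyte genes left out by -0.50 (adjusted p = 0.36 by limma). The remaining lower calls were Airn, the antisense RNA at Igf2r (-0.87 ± 0.21), Parp9 (-0.64 ± 0.15), Eepd1 (-0.64 ± 0.14), Zfp810 (-0.62 ± 0.14), Tnk2 (-0.62 ± 0.15) and Prune1 (-0.50 ± 0.12).

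Lists of immunity, growth and stress held no called gene. None of 14 proliferation genes, 7 milk protein genes, 16 immediate early genes, 24 genes of heat shock and protein folding or 25 ribosomal protein genes passed in either fit, with medians between -0.13 and 0.14. In the block fit Hp, the acute phase protein haptoglobin, was lower in CR (-0.66 ± 0.19), as were the interferon-induced genes Usp18 (-0.50 ± 0.13) and Rsad2 (-0.46 ± 0.12). Irf4, a transcription factor of lymphocytes and fat cells, had 1030, 1730 and 2420 in CR, against 233, 656 and 1900 in AL and passed only with the block (1.24 ± 0.31). In that fit it was 1.02 without the arrays with a high Gapdh ratio (adjusted p = 0.13 by limma). Without the B-lymphocyte-high arrays it was 1.46 there (adjusted p = 0.055 by limma). Within runs 1 to 4 Irf4 differed by 2.33, 0.12, 1.63 and 0.99. Adipocyte markers had a median of 0.04 and a mean level of 12.32 to 13.59 in CR and 12.61 to 13.75 in AL, and fat cell genes were bright on every array. Of 4 mast cell markers 3 lay above 0 and 1 below. The block fit called 2 of them, both higher in CR, against 2.60% of all genes. In that fit 0 were called without the B-lymphocyte-high arrays. Mcpt4, a mast cell protease, had 104, 163 and 497 in CR, against 17.2, 34.5 and 368 in AL (1.70 ± 0.39), and Cpa3, another, differed by 0.60 ± 0.17. Without those arrays they were 0.98 and 0.34 (adjusted p = 0.33 and 0.38 by limma), and without the arrays with a high Gapdh ratio Mcpt4 was called alone. In the mice with wheels (CR+EX minus AL+EX) Mcpt4 differed by -0.16 ± 0.46 and Cpa3 by 0.26 ± 0.24. The erythroid gene Alas2 (0.80 ± 0.25) and the myelin gene Mbp (0.76 ± 0.22) were higher in CR in the block fit with all arrays. No marker of the other 10 cell types passed in it. Hba-a1, the other red blood cell marker tested, was -0.26 there, and 5 of the 7 other probe sets of Mbp pointed the same way. Without the arrays with a high Gapdh ratio, Alas2 and Mbp lost the block call (adjusted p = 0.077 and 0.14 by limma). They also lost it without the B-lymphocyte-high arrays (adjusted p = 0.26 and 0.19 by limma).

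The same restriction was measured in other mice, which had wheels. Their arrays also entered the estimate of the spread behind the 41 calls, so the p-values of the 2 comparisons share that estimate, while the differences come from separate animals. All 41 called genes had the same direction in CR+EX minus AL+EX, against 67.3% of all genes. For 30 of the 41 the difference there had the same direction and an unadjusted p under 0.05 (13.5% of all genes), and 16 passed the adjusted threshold there, which 1.65% of all genes did (limma). Nr1d1 differed there by -1.66 ± 0.32, Dbp by -1.28 ± 0.25, Nfil3 by 1.15 ± 0.20, Elovl6 by 1.15 ± 0.18 and Me1 by 1.11 ± 0.20. Mybph (0.27 ± 0.33), Mgp (0.40 ± 0.25), Fkbp4 (0.16 ± 0.15), Pmepa1 (-0.12 ± 0.15) and Sprr1a (-0.20 ± 0.21) did not pass with wheels. For no gene did the difference between the 2 restriction effects pass: 0 were called (smallest adjusted p = 0.28 by limma), and 295 had an unadjusted p under 0.05 (3.17%). Of these, Sars, the seryl-tRNA synthetase, had the smallest p, with 0.36 ± 0.11 without wheels and -0.39 ± 0.11 with them. The other probe set of Sars pointed the opposite way in CR minus AL. Cyp8b1, a sterol hydroxylase of bile acid synthesis, differed by 0.42 ± 0.18 without wheels and -0.60 ± 0.18 with them. In the wheel mice too, AL+EX animals precede CR+EX animals in the numbering of every run, so place in the run and diet cannot be told apart there either.

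**Figure D5:**
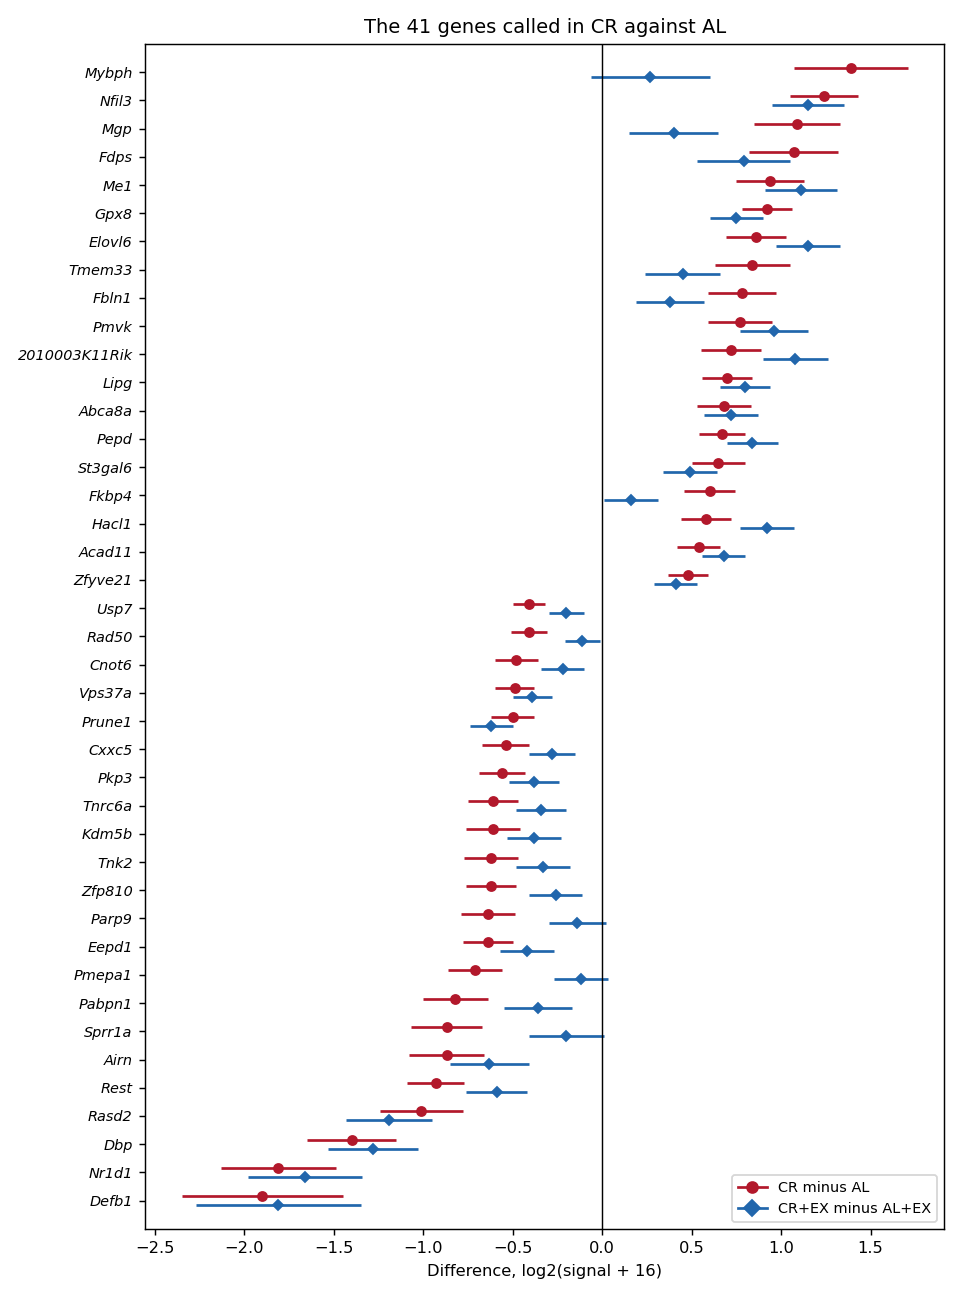
The 41 called genes in order of size, with the CR minus AL difference (red circles) and the CR+EX minus AL+EX difference (blue diamonds) on the log2(signal + 16) scale. Bars are standard errors, and every gene lies on the same side of 0 in both.

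The count of calls depended on which arrays entered. Leaving out the arrays high in B lymphocyte genes (4 CR and 4 AL arrays among 15 in the study), 9 genes were called (0.0968%), 5 of them among the 41. Without the 3 AL arrays with a high Gapdh ratio, and the 2 such CR+EX arrays, 10 were called (0.108%), 7 of them among the 41. All 41 kept their direction in both, with median sizes of 0.68 and 0.69. With the runs as a block added, 148 genes (1.59%) and 211 genes (2.27%) were called, among them 20 and 38 of the 41. In the 19 fits that each left out 1 CR or AL array, 9 genes were called every time: Dbp, Elovl6, Gpx8, Lipg, Me1, Nfil3, Nr1d1, Pepd and Rest. Each of the others lost its call in at least 1 of these fits, which called between 9 genes (without CR array 5) and 150 genes (without CR array 1).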

How the data were processed

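Mammary gland RNA from 37 mice was measured on Affymetrix arrays, and the 9 CR and 10 AL arrays were compared. The authors deposited signal intensities on a linear scale for 22690 probe sets. GCOS version 1 is the tool in the submitters' processing notes; how GCOS made a signal is not given in the sources at hand. No further scaling was applied. Array data carry no counts, and the number of arrays limits the precision. Signals were used as log2(signal + 16).

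Of the probe sets 20380 named 1 gene, 691 several and 1555 none, and 64 were controls. The 29 without an Entrez match are named by the platform's symbol. Each of 12393 genes was represented by its brightest probe set over the 37 arrays, and 9294 genes stayed after removal of the dimmest 25% (mean log2 under 6.71, or 88.7 in signal).

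With limma 3.58.1 in R 4.3.3, a model of the 4 group means was fitted over the 37 arrays, with a variance trend in eBayes. It left 33 residual degrees of freedom and a median residual SD of 0.339. The contrasts CR minus AL, CR+EX minus AL+EX and their difference were tested two-sided with Benjamini-Hochberg adjustment over 9294 genes at 0.05. The fit was tested on simulated data with independent noise and no run effect. Such data cannot show how the runs or the arrays that stood apart affect the calls. Each array is 1 animal number, so p-values rest on the spread between arrays of different animals. Differences in tissue content and RNA quality enter that spread too, as do the runs where they are not a block. The main fit treats the arrays of a run as independent.

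Named were all called genes, up to 4 called members of each list or otherwise the 2 with the smallest p, the 8 largest rises and falls called only with the run block, the 3 smallest p of the wheel difference, and 15 fixed genes such as Lep, Fasn and Per2. The comparison, the 27 pathway lists, the 13 cell type lists and the tests were chosen with earlier results of these data known. Alternatives were the 19 arrays alone, the animal number run as a block, other offsets, filters, scalings, probe set rules and variance models, and leaving out arrays. The runs are animal numbers 2 to 22, 26 to 48, 50 to 70 and 122 to 144. With each gene centred on its group mean, CR and AL arrays of the same run had a median correlation of 0.22 over 23 pairs, against -0.0506 over 67 pairs from other runs.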

Additional observations from a re-analysis of the deposited data

Results flagged for a closer look

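Among the named genes and the Gapdh ratio, 22 of 266 groups of values (8.27%) held an array far from the others of its group by Dixon's test, 11 in CR and 11 in AL. Chance alone flags about 1 in 20 groups where the values are normally distributed, and for other distributions that share can differ. Of the called genes, Me1 was lowest on CR array 1 (12600, next 18400), Defb1 highest on CR array 9 (687, next 199), Tnk2 highest on CR array 3 (1190, next 834), Sprr1a highest on AL array 4 (1400, next 523) and Tmem33 lowest on AL array 8 (123, next 250). Without AL array 4, Sprr1a differed by -0.67, and without AL array 8, Tmem33 differed by 0.68 (adjusted p = 0.049 and 0.10 by limma).

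In CR glands, array 8 had the highest Agpat3 (2780) and Sirt3 (766) and the lowest Enpep (981, next 2920), which encodes an aminopeptidase that cleaves angiotensin. CR array 1 had the highest Usp18 (601) and the lowest Mapk8ip1 (61.2). CR array 5 had the highest Mylpf (23000) and the lowest Hba-a1 (20.7), and CR array 2 the lowest Cxcl12 (1150).

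In AL glands, array 9 had the lowest Retn (2630, next 7950), Krt8 (951), Wnt4 (176) and Chil1 (11.6). AL array 8 had the lowest Tsc22d3 (838, next 2660), AL array 5 the lowest Csn2 (29) and Hba-a1 (25.1), and AL array 1 the lowest Mylpf (6580). AL array 2 had the highest Gapdh 3' to 5' ratio (7.03, next 2.74).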

How the results depend on the processing

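The number of called genes depended on the settings, and the 41 called genes kept their direction in each setting that tested them (6 were not tested with the lowest 50% left out, and Rest not with the mean of probe sets). Some list medians changed sign. Without the B-lymphocyte-high arrays they were 0.07 for glucocorticoid and fasting genes (-0.13 with all arrays), -0.08 for adipokines (0.07), -0.06 for milk proteins (0.14), -0.11 for fatty acid uptake (0.04) and -0.13 for collagens and matrix (0.15). Against 41 genes called, the 19 arrays alone gave 63, the run block 573, both together 392, no filter on dim genes 19, leaving out the lowest 50% of genes 69, quantile normalization 24, median centring 14, no variance trend 17, array weights 175, leaving out arrays high in B lymphocyte genes 9, the B lymphocyte level as a covariate 183, and leaving out arrays with a Gapdh ratio above 2 gave 10. Of 3 alternatives chosen after seeing the data, the exclusions combined with the run block gave 211 (Gapdh) and 148 (B lymphocyte), and the Gapdh ratio as a covariate gave 38. Against 9 list members called, the same settings gave 14 (19 arrays), 48 (block), 46 (both), 29 (array weights), 2 (B lymphocyte exclusion), 28 (B lymphocyte covariate), 5 (Gapdh exclusion), and 30 and 14 with the Gapdh and B lymphocyte exclusions in the block. The cause was not tested. Fits without 1 array called between 9 (without CR 5) and 150 (without CR 1) genes and between 6 and 25 list members. Counts over 1.5 times away came also without AL 5 (82), AL 3 (26), AL 4 or AL 6 (24), AL 8 (13), AL 7 (10), CR 2 (21), CR 8 or CR 9 (16), CR 6 (11), and CR 4 or CR 7 (10). The wheel difference stayed at 0 calls in every setting run, though up to 966 genes had an unadjusted p under 0.05. Over the named genes and settings, 2038 of 2455 values kept their side of the threshold, 241 were no longer past it and 176 newly passed. No paired analysis was possible because each animal number occurs once and replicate numbers only count the arrays of a group, and the runs entered as a block instead. Dim genes are limited by signal over background, and no detection calls were used.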

Other observations

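Several genes outside the pathway lists differed in the fit with the runs as a block and did not pass without it. Enpep, an aminopeptidase that cleaves angiotensin, had 981, 3180 and 4470 in CR glands (lowest, median and highest array), against 296, 1750 and 2600 in AL glands (1.35 ± 0.25 with the block). Mapk8ip1, a scaffold of the JNK pathway, had 61.2, 396 and 617 in CR, against 13.7, 201 and 375 in AL (1.13 ± 0.27). It was 0.70 in that fit without the arrays with a high Gapdh ratio (adjusted p = 0.13 by limma), and 0.35 there without the block. The linker histone gene H1f10 differed by 1.24 ± 0.27 and Actc1, the cardiac actin gene, by 1.18 ± 0.35. Lower in CR were Spon1, a secreted matrix protein (24.2, 142 and 380 in CR, against 198, 377 and 712 in AL, -1.50 ± 0.37), Fam20c, a kinase of secreted proteins (-1.11 ± 0.28), Chil1, a chitinase-like protein (-1.08 ± 0.32), and Donson, a DNA replication factor (-0.91 ± 0.21). The groups overlapped in each of these genes. The block fit without the high Gapdh ratio arrays also lost Actc1, Spon1, Fam20c and Chil1 (adjusted p of 0.07 to 0.26 by limma). Without the B-lymphocyte-high arrays it lost Actc1, Spon1, H1f10 and Donson (adjusted p of 0.057 to 0.17 by limma). Enpep stayed called in both. Chil1 differed by 0.91 within run 4 and Donson by 0.65 within run 1, opposite to the whole comparison.

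Hormone and growth genes that passed in neither fit are given as values. Wnt4, a ductal signal downstream of progesterone, differed by -0.55 ± 0.26, Myc by 0.35 ± 0.12, Junb by -0.59 ± 0.23 and Mcm7, of the replication helicase, by -0.32 ± 0.16. The brown fat genes Elovl3 and Cidea differed by 0.41 ± 0.27 and 0.39 ± 0.26, the macrophage gene Cd163 by 0.68 ± 0.26, and Mt2, a metallothionein, by -0.58 ± 0.26.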
